A study of Mus musculus with 12 samples.

Results

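The comparison described here is that of the double mutant, with homozygous Pcna K164R and Rev1 loss together, against homozygous Pcna K164R alone. It addresses what the loss of Rev1 adds when the replication clamp already carries the K164R change. The genotype label assigned 6 of the 12 plates of the series to it, 4 plates of the double mutant (HOM;HOM) and 2 of Pcna K164R with wild-type Rev1 (HOM;WT). The other 6 plates, 3 wild type (WT;WT) and 3 Rev1 knockout (WT;HOM), entered the model only to estimate the spread and the sort sessions. All plates hold single LSK cells (blood progenitors that lack lineage markers and carry Sca-1 and Kit) sorted by FACS, per the labels, from fetal liver at embryonic day 18.5 (C57BL/6J mice), and read by SORT-seq, which tags the 3' ends of transcripts with well barcodes and unique molecular identifiers (UMIs). By their labels, both groups share the homozygous Pcna K164R clamp and differ in Rev1. Neither a treatment nor an inducible allele is named for any plate. The labels do not say whether plates came from separate fetuses or pools, so the p-values measure the spread between plates.

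PCNA is the ring that holds polymerases on DNA, and the lysine lost in K164R is the residue that Rad6 and Rad18 ubiquitinate when a fork stalls at damage. That ubiquitin recruits translesion polymerases, which copy across the lesion. REV1 is both a deoxycytidyl transferase and the scaffold on which the other Y-family polymerases and polymerase zeta assemble, and it can be recruited to stalled forks without the modified clamp. Haematopoietic stem and progenitor cells respond to unrepaired replication damage through p53, whose targets include the cell cycle inhibitor p21 (Cdkn1a) and the death effector Bax.

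Of 4608 wells on the 12 plates, 3088 held at least 1000 UMIs and were summed by plate. The double mutant plates kept 93.0%, 69.8%, 21.4% and 27.9% of their wells, with 11617420, 9677881, 212938 and 2402867 UMIs. The Pcna K164R plates kept 92.2% and 72.9%, with 8567277 and 4960419 UMIs. Double mutant replicate 3 stands apart: 1 UMI there is worth 9.41 CPM (UMIs scaled to a common library size) and the floor of 3 UMIs is 28.2 CPM, against at most 1.27 CPM in the other 5 plates, so a gene at 0 in replicate 3 may still lie at the level of the Pcna K164R plates. Double mutant replicates 1 and 2 were sorted on the same day as both Pcna K164R plates (session 1), whereas replicate 3 belongs to session 2 and replicate 4 to session 3. UMIs of the X-linked transcript Xist were in 26.4% of wells of Pcna K164R replicate 2, in 0 of those of replicate 1 and in 0.935% to 5.88% of those of the double mutant plates. Y-linked UMIs were in 52.9% of wells of Pcna K164R replicate 2, 59.0% of those of replicate 1 and 30.5% to 58.9% of double mutant wells. The Xist shares thus differed between plates, and the sex of each source was not settled. Genes on X and Y were left out for that reason, and the part of sex in autosomal genes was not tested.

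The targeted gene was measured first. Rev1 stood at 1.36 and 2.57 CPM in double mutant replicates 1 and 2, at 9.41 in replicate 3 (1 UMI) and at 14.0 in replicate 4, against 10.7 and 7.68 in the Pcna K164R plates. The library labelled double mutant replicate 4 thus goes against its label for Rev1, with a level above both Pcna K164R plates. The labels do not give the deleted part of the gene, and 3' tags outside it would check nothing. Across all plates the Rev1 difference was -1.74 ± 0.62 (log2 fold change ± SE, adjusted p = 0.396 by edgeR's quasi-likelihood test with Benjamini-Hochberg adjustment over 11799 genes). Without the library labelled replicate 4 it was -2.21, and within session 1 alone it was -2.27. Pcna itself, whose K164R change alters the protein and not the gene's dosage, stood at 1069, 933, 377 and 1005 CPM in the double mutant and at 780 and 856 CPM in Pcna K164R, a difference of 0.25 ± 0.38 (adjusted p = 0.872 by the same test).

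In the plates labelled double mutant, 3 genes fell and 0 rose at an adjusted p below 0.05, which is 0.0254% of the genes tested. Without the library labelled replicate 4 the count was 0, with 1015 genes at an unadjusted p below 0.05. With double mutant replicates 1 and 2 only, 3 genes were lower and 0 higher at the adjusted threshold, with 1833 genes at that unadjusted p. The genes that fell with all plates were Igf2, a fetal growth factor expressed from the paternal allele, Ifi44, an interferon-induced gene, and Wfdc17, a small secreted protein of myeloid cells. Before adjustment, 553 genes were higher (4.69%) and 629 lower (5.33%) at p below 0.05, and the median log2 fold change of all genes was -0.00160. DESeq2 called 42 genes higher (0.431% of 9740) and 55 lower (0.565%). Counts were also simulated with the plates' own depths and a spread set by each gene's level alone, with no session effect. There the edgeR test recovered 95 of 100 genes changed by 2 on the log2 scale and 22 of 100 changed by 1. It made 10 false calls among 11622 genes. The changed genes were not drawn from the lowest counts, so recovery in the real plates was not measured.

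Igf2 (chromosome 7, 142650766 to 142666816, GRCm38) was at 1.36, 1.61, 0 and 2.12 CPM in the double mutant plates and at 16.9 and 28.8 CPM in the Pcna K164R plates. Those CPM rest on 35 UMIs in the 4 double mutant plates together and on 299 in the 2 Pcna K164R plates. Double mutant replicates 1, 2 and 4 lay below both Pcna K164R plates, and the 0 of replicate 3, with its floor of 28.2 CPM, places that plate nowhere. The log2 fold change was -3.82 ± 0.45 (adjusted p = 0.0264, edgeR). Wild-type plates held 25.5, 14.1 and 24.0 CPM and Rev1 knockout plates 37.5, 6.98 and 13.7 CPM. The Pcna K164R plates were thus inside the range of wild type and Rev1 knockout, while double mutant replicates 1, 2 and 4 were below it. Within session 1 alone the fold change was -3.94 (adjusted p = 0.0556), and without double mutant replicate 4 it was -3.95 (adjusted p = 0.0512).

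Ifi44 (chromosome 3, 151730922 to 151749960) was at 3.0, 2.36, 0 and 1.27 CPM in the double mutant and at 11.0 and 22.5 CPM in Pcna K164R, a log2 fold change of -2.80 ± 0.39 (adjusted p = 0.0463, edgeR). Wfdc17 (chromosome 11, 83703991 to 83706268) was at 4.9, 3.22, 0 and 1.70 CPM against 15.4 and 27.8 CPM, a log2 fold change of -2.50 ± 0.35 (adjusted p = 0.0463, edgeR). For both genes double mutant replicates 1, 2 and 4 were below both Pcna K164R plates, and replicate 3, at 0 UMIs, cannot be placed. For both genes the Pcna K164R mean also lay below that of wild type, where Ifi44 was at 21.8, 41.5 and 34.3 CPM and Wfdc17 at 43.7, 35.8 and 40.9 CPM. The comparisons with wild type share plates with this one, and their values are given only side by side: Pcna K164R minus wild type was -0.68 ± 0.43 for Ifi44 and -1.21 ± 0.39 for Wfdc17 (adjusted p = 1 for each, edgeR). Without double mutant replicate 4, Ifi44 was at -2.61 (adjusted p = 0.0737) and Wfdc17 at -2.40 (adjusted p = 0.0957).

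**Figure D1:**
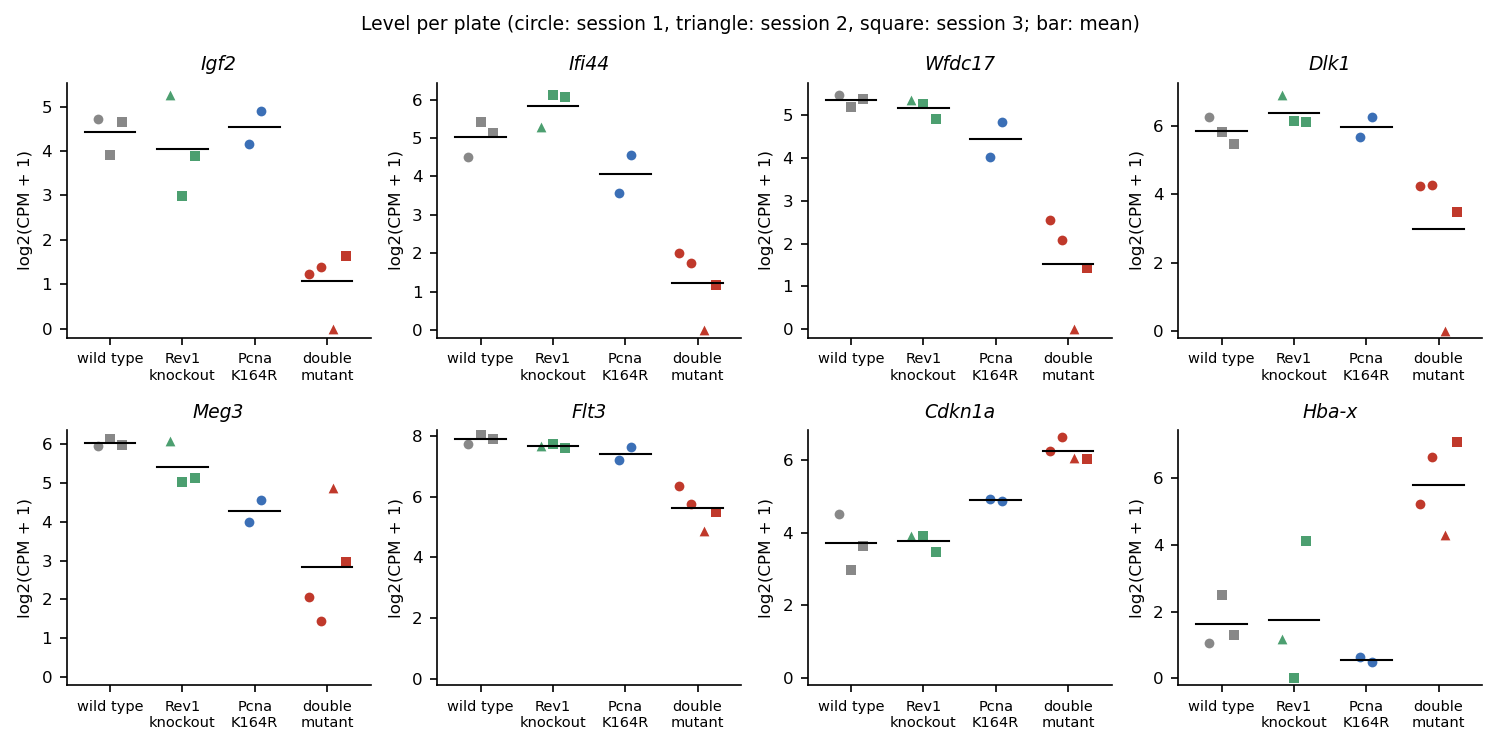
Levels of 8 genes in each of the 12 plates as log2(CPM + 1), by genotype, with the sort session as the marker's shape and the group mean as a bar. Igf2, Ifi44 and Wfdc17 are lower in double mutant replicates 1, 2 and 4 than in both Pcna K164R plates (replicate 3 is at 0 UMIs, with a floor of 28.2 CPM), Dlk1 and Flt3 are lower in all 4, Cdkn1a and Hba-x are higher in all 4, and for Meg3 double mutant replicate 3 (28.2 CPM, 3 UMIs) lies above both Pcna K164R plates.

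The next genes by p in the lower direction were the imprinted neighbours Dlk1 and Meg3. Dlk1 encodes a transmembrane protein of the Notch ligand family, and Meg3 is a maternally expressed noncoding RNA of long-term stem cells in fetal liver. Dlk1 was at 17.9, 18.2, 0 and 10.2 CPM in the double mutant and at 50.3 and 76.4 CPM in Pcna K164R (-1.86 ± 0.27, adjusted p = 0.0509, edgeR). Meg3 was at 3.18, 1.72, 28.2 and 6.78 CPM against 15.04 and 22.5 CPM (-2.59 ± 0.39, adjusted p = 0.0564, edgeR). The Meg3 groups overlap because of 3 UMIs in replicate 3. Without that plate both genes passed, at adjusted p = 0.0137 for Dlk1 and 0.0284 for Meg3. On the list of fetal and imprinted growth genes, 10 of the 23 tested were lower and 2 higher at an unadjusted p below 0.05, and the list's median was -0.66 (-0.33 without Pcna K164R replicate 2). Further lower members were Igf2bp2, an RNA-binding protein of the fetal stem cell programme (-0.83 ± 0.21), and Ndn, an imprinted growth suppressor (-0.86 ± 0.22). The 2 higher members were Mest (3.604) and Grb10 (0.66), so the list did not move as a whole.

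Genes that type I interferon induces were the list with the most members lower. Of 51 tested, 48 had a log2 fold change below 0, 25 were lower and 1 higher at an unadjusted p below 0.05, and the median was -0.79. Among all genes the share lower at that p was 5.33%. Only Ifi44 passed the adjusted threshold on this list, and DESeq2 called 7 members lower and 0 higher. By plain CPM, all 4 double mutant plates were below both Pcna K164R plates for 19 members, as they were for 10.2% of all genes. They were above both for 1 member, as for 4.64% of all genes. A 0 in replicate 3, as for Ifi44, counts as below here, though the floor of 28.2 CPM can leave that plate unplaced. Without replicate 3, the plates were below for 33 members (16.3% of all genes) and above for 1 member (17.0%). Within session 1 alone the median was -0.71, without double mutant replicate 4 it was -0.70, in wells thinned to 1000 UMIs -0.59, and in such wells without erythroid-marker wells -0.49.

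Irgm2, an interferon-inducible GTPase that acts on vacuoles of intracellular pathogens, was at 7.81, 5.58, 9.41 and 7.21 CPM in the double mutant and at 19.5 and 22.9 CPM in Pcna K164R (-1.70 ± 0.26, adjusted p = 0.0606, edgeR). Ifit1, which binds RNA with foreign 5' ends, was at 7.90, 2.79, 18.8 and 4.66 CPM against 14.3 and 25.8 CPM (-2.0 ± 0.44, adjusted p = 0.253). In Ifit1 the 2 UMIs of replicate 3 put that plate between the Pcna K164R plates. Trim30d was at -1.43 ± 0.33 and Iigp1, a GTPase chosen after its values were seen, at -2.08 ± 0.48. Of the 16 genes of MHC class I presentation tested, 14 were below 0 with a median of -0.40, among them the immunoproteasome subunit Psmb9 (-0.88 ± 0.26) and H2-D1 (-0.60 ± 0.25). At an unadjusted p below 0.05 2 were lower and 0 higher, and 0 passed the adjusted threshold in edgeR or in DESeq2.

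The interferon-stimulated response element is the site that the factor ISGF3 binds in these promoters, and its core was searched as a pair of GAAA runs with any 2 bases between them, on both strands, with overlapping matches counted. The windows ran from 250 bases before to 50 after each start in RefSeq's GRCm38.p6 annotation. Of 32851 windows of all genes, 3.44% held the core, and of the 46 windows of interferon-stimulated genes 23 did. Counted by gene, 3.99% of all genes held it in at least 1 window, and 22 (56.4%) of the 39 interferon-stimulated genes that matched a window by symbol. The 22 genes with the core had a median log2 fold change of -0.75 and the 17 without it -0.45, with 20 and 16 of them below 0. Ifi44, the member that fell, is among those without it. The upstream stretches below are shown because they carry the core in members named above, in lower case with the core in capitals, each running 5′ to 3′ on its gene's strand and ending 21 bases before the start.
Irgm2, chr11:58214837-58214956, plus strand: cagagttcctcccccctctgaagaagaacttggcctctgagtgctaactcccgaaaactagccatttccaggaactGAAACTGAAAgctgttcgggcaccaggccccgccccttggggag
Ifit1, chr19:34640749-34640868, plus strand: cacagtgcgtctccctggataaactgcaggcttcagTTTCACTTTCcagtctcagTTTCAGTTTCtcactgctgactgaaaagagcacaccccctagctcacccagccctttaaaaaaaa
Trim30d, chr7:104507870-104507989, minus strand: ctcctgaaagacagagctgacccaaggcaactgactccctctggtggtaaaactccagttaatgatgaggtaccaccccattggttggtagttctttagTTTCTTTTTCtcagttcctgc
In Irgm2 the core begins 64 bases before the start, in Ifit1 the 2 matches begin 104 and 85 bases before it on the opposite strand, and in Trim30d 41 bases before it, also on the opposite strand. A match describes the letters and is no measure of binding.

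Of 19 chemokine and NF-kB genes, 16 were below 0, with 4 lower and 0 higher at an unadjusted p below 0.05, and a median of -0.67 (-0.39 without erythroid-marker wells). Ccl4, a chemokine of activated leukocytes, was at 2.63, 2.68, 0 and 0.424 CPM against 8.41 and 22.9 CPM (-2.68 ± 0.45, adjusted p = 0.0664, edgeR). Nfkbia, the NF-kB inhibitor that NF-kB itself induces, was at -0.82 ± 0.27. The immediate-early and AP-1 genes had 17 of 19 members below 0 and a median of -0.55 (-0.21 without Pcna K164R replicate 2), with Klf6 at -1.06 ± 0.26 and Egr1 at -1.87 ± 0.62. Egr1 was at 3.0, 1.82, 56.5 and 3.39 CPM in the double mutant against 4.65 and 14.4 CPM, so that replicate 3 was the highest plate and the groups overlap.

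**Figure D2:**
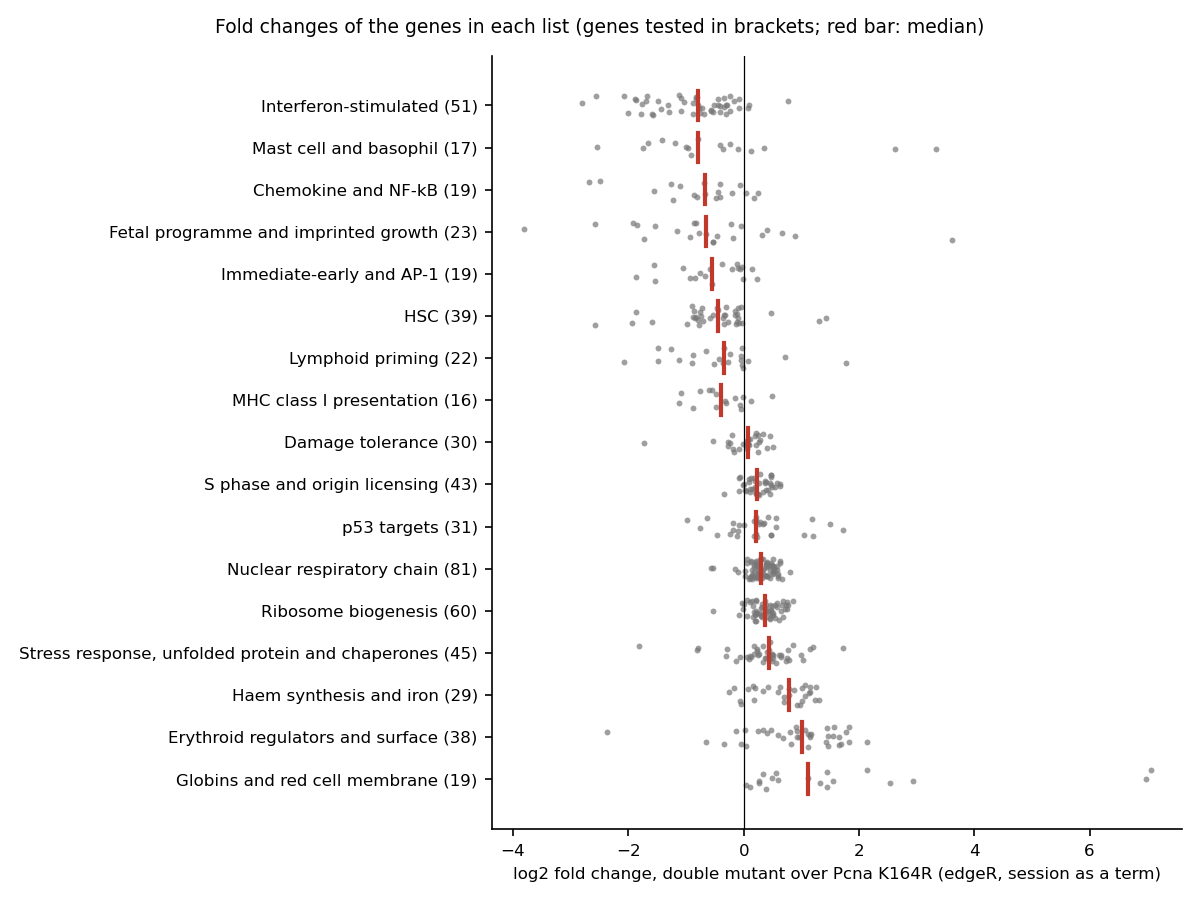
Log2 fold changes of the tested members of 17 gene lists, double mutant over Pcna K164R, one point per gene with the list's median as a red bar. Interferon-stimulated genes centre on -0.79 and globins and red cell membrane genes on 1.11, while damage tolerance genes centre on 0.08.

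Of 39 stem cell genes tested, 0 passed the adjusted threshold in edgeR and DESeq2 called 7 lower and 0 higher. Of the 39, 36 had a log2 fold change below 0, and 14 were lower and 2 higher at an unadjusted p below 0.05, with a median of -0.44 (-0.85 in wells thinned to 1000 UMIs). The 2 higher members were Gfi1b (1.43) and Slamf1 (1.30), while Mecom (-0.16) and Gata2 (-0.10) were near 0. Hlf, a transcription factor that marks stem cells, was at 152, 201, 225.9 and 121 CPM in the double mutant and at 305 and 325 CPM in Pcna K164R (-0.90 ± 0.21, adjusted p = 0.286, edgeR). Robo4, a receptor that helps stem cells lodge in the niche, was at 4.99, 7.61, 28.2 and 3.39 CPM against 19.2 and 16.5 CPM (-1.59 ± 0.36). Replicate 3 was again the exception for Robo4, on 3 UMIs. Cd93, a surface protein of early progenitors chosen after its values were seen, was at 119, 131, 113 and 92.0 CPM against 224 and 251 CPM (-1.01 ± 0.21, adjusted p = 0.218), with no overlap.

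Lymphoid priming genes had 19 of 22 members below 0, 5 lower and 0 higher at an unadjusted p below 0.05, and a median of -0.35. Flt3, the cytokine receptor that marks lymphoid-primed progenitors, was at 80.6, 53.6, 28.2 and 44.1 CPM in the double mutant and at 146 and 196 CPM in Pcna K164R (-1.49 ± 0.27, adjusted p = 0.0993, edgeR). Satb1, a chromatin organiser of lymphoid cells, was at 65.2, 47.4, 47.1 and 17.4 CPM against 112 and 161.5 CPM (-1.49 ± 0.35). In neither gene did the groups overlap. Notch1, the receptor that starts T cell development, was at -1.11 ± 0.29. Flt3 in wild-type plates was at 214, 261 and 240 CPM, above the Pcna K164R plates. Without double mutant replicate 3 Flt3 passed the threshold (adjusted p = 0.0428), and without replicate 4 it did not (0.209).

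Mast cell and basophil genes had 13 of 17 members below 0, 4 lower and 0 higher at an unadjusted p below 0.05, and a median of -0.79. The list was not uniform: the 4 members above 0 were Mcpt4 (3.34), Mcpt8 (2.63), Prss34 (0.36) and Fcer1a (0.12). Hdc, which makes histamine, was at 38.6, 72.3, 0 and 14.8 CPM against 162.4 and 217 CPM (-1.66 ± 0.42, adjusted p = 0.312, edgeR), and the mast cell protease Tpsab1 was at -2.54 ± 0.69. These transcripts came from few wells: single wells held 55.8% and 62.2% of the Hdc UMIs in double mutant replicates 1 and 2, and 32.7% and 25.8% in the Pcna K164R plates. Wild-type plates held 129, 15.1 and 19.2 CPM of Hdc, so that the Pcna K164R plates were the highest of those 3 genotypes. The megakaryocyte list had 15 of 22 members below 0, 5 lower and 2 higher at that p, and a median of -0.16 (-0.05 without Pcna K164R replicate 1 and -0.46 in wells thinned to 1000 UMIs), with Plek at -1.30 ± 0.30. Granulocyte-monocyte genes centred on -0.24 over 26 members (-0.03 within session 1 alone and 0.26 with flow cell in place of session), with 4 lower and 0 higher at that p, among them the repressor Gfi1 (-0.93 ± 0.29).

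Red cell genes went the other way in values, though 0 passed the adjusted threshold in edgeR. The globin and red cell membrane list had 19 of 19 members above 0, 7 higher at an unadjusted p below 0.05, and a median of 1.11. The erythroid regulator and surface list had 33 of 38 above 0, 16 higher and 1 lower, and a median of 1.01. The haem synthesis and iron list had 25 of 29 above 0, 12 higher and 0 lower, and a median of 0.78. Among all genes 49.8% were above 0 and 4.69% were higher at that p. Within session 1 alone the 3 medians were 0.83, 0.64 and 0.54, and without double mutant replicate 4 they were 0.86, 0.76 and 0.64. DESeq2 called 3, 1 and 2 members of these lists higher and 0 lower. Without erythroid-marker wells the medians were 1.33, 1.08 and 0.67, and with the remaining wells also thinned to 1000 UMIs, a setting chosen after seeing the data, they were 0.28, 0.31 and 0.69.

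The embryonic globins had the largest log2 fold changes on these lists. Hba-x, the zeta-like chain of primitive red cells, was at 36.1, 97.8, 18.8 and 135 CPM in the double mutant and at 0.553 and 0.394 CPM in Pcna K164R, from 1630 UMIs against 7 (6.98 ± 1.23, adjusted p = 0.0898, edgeR). Hbb-y, the epsilon-like chain, was at 27.2, 128, 0 and 70.8 CPM against 0.774 and 0.197 CPM, from 1660 UMIs against 8 (7.06 ± 1.25, adjusted p = 0.0901). Few wells carried them. In double mutant replicate 2 the richest well held 70.6% of the Hbb-y UMIs, and the richest for Hba-x 22.8%. In replicate 1 these were 52.5% and 16.8%. Hba-x was nevertheless seen in 53, 69, 2 and 28 double mutant wells and in 1 well of each Pcna K164R plate. Without wells that had at least 5 erythroid-marker UMIs per 1000, the Hba-x fold change was 5.23 and that of Hbb-y 3.37.

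The remaining red cell genes were spread over more wells. Tfrc, the transferrin receptor that brings in iron, was at 289, 323, 198 and 409 CPM against 193 and 146 CPM (1.07 ± 0.33, adjusted p = 0.335, edgeR). Replicate 3 held the lowest level of the 4 and stood just above the Pcna K164R plates. Epb4.2, a band of the red cell skeleton, was at 21.2, 17.9, 28.2 and 35.2 CPM against 6.42 and 8.08 CPM (1.44 ± 0.34). Mrap was at 16.2, 14.9, 0 and 25.4 CPM against 4.09 and 3.74 CPM (2.13 ± 0.53), with overlap from the 0 in replicate 3. Tmem14c, a carrier of haem precursors in mitochondria, was at 1.15 ± 0.31, and Gfi1b, a transcriptional repressor that acts within the erythroid and megakaryocyte lineages, at 1.43 ± 0.44. Car1, an erythroid carbonic anhydrase, went against its list: it was at 21.3, 12.9, 0 and 15.3 CPM against 107 and 79.0 CPM (-2.37 ± 0.72, adjusted p = 0.335), with no overlap.

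Marker sums for whole cell types moved beside these lists. Stem cell markers (10 of 10 detected in replicate 1) made up 0.0528%, 0.0601%, 0.0372% and 0.0466% of UMIs in the double mutant plates against 0.0879% and 0.0972% in the Pcna K164R plates. Lymphoid markers made up 0.00867% to 0.0223% against 0.0396% and 0.0532%, and mast cell markers 0.000477% to 0.0498% against 0.0865% and 0.152%. The sorting antigens Kit and Ly6a together made up 0.00668% to 0.0281% against 0.0435% and 0.0520%. Megakaryocyte (0.00429% to 0.00647% against 0.00978% and 0.00837%), macrophage (0.0105% to 0.0170% against 0.0233% and 0.0224%), hepatocyte (0.00257% to 0.00349% against 0.00536% and 0.00386%) and endothelial markers (0.00249% to 0.00334% against 0.00415% and 0.00361%) were lower too. None of these 8 sums of the 14 classes overlapped between the groups, and each gave p = 0.0667 in a two-sided exact permutation test of 4 against 2 plates, the smallest that design allows (0.117 after adjustment over 14 marker classes). The test has no term for sort session, and both Pcna K164R plates are of session 1. Wild-type mast cell sums were 0.0400% in session 1 and 0.00288% and 0.00415% in session 3. Wild-type stem cell sums were 0.117% in session 1 and 0.129% and 0.121% in session 3. The part of session in these sums was not tested. In wells thinned to 1000 UMIs the macrophage, hepatocyte and endothelial sums overlapped, and the others stayed apart. The thinned macrophage means were 0.0241% in the double mutant and 0.0231% in Pcna K164R. In double mutant replicate 3, the unthinned sums rested on 1 mast cell, 6 hepatocyte, 7 endothelial, 10 megakaryocyte and 22 macrophage UMIs. Erythroid markers were at 0.174%, 0.230%, 0.0530% and 0.334% against 0.153% and 0.139% (exact permutation p = 0.6), and wells with at least 5 erythroid-marker UMIs per 1000 were 10.4%, 16.8%, 0% and 23.4% of the double mutant wells against 6.50% and 3.93%. Kit was at 225, 257, 132 and 242 CPM against 357 and 446 CPM (-0.79 ± 0.27, adjusted p = 0.376, edgeR) and Ly6a, which encodes Sca-1, at 31.0, 25.6, 0 and 19.9 CPM against 42.4 and 44.5 CPM (-0.75 ± 0.26, adjusted p = 0.38). The part of cell makeup in the gene results was not tested.

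**Figure D3:**
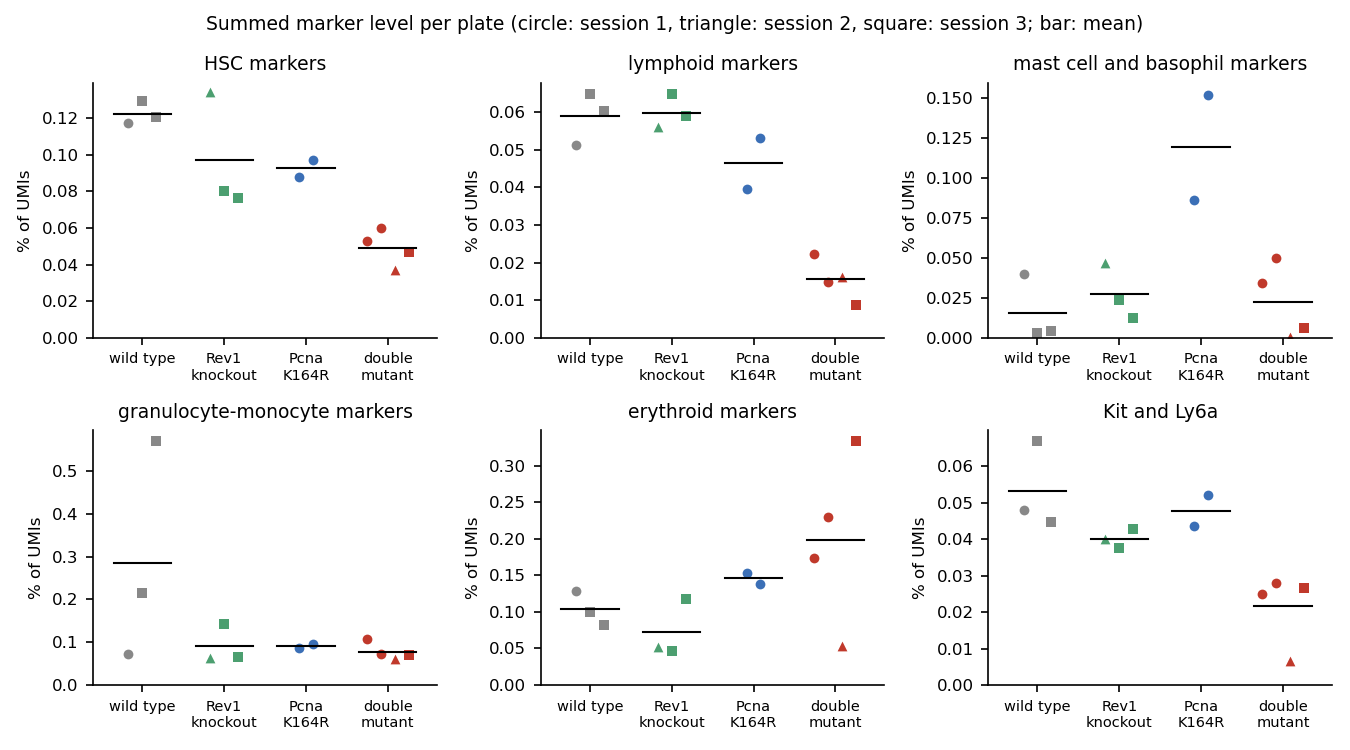
Summed level of 6 marker sets per plate, as a percentage of UMIs outside X and Y, by genotype, with the sort session as the marker's shape and the mean as a bar. Stem cell, lymphoid, mast cell and sorting-antigen sums are lower in all 4 double mutant plates than in both Pcna K164R plates, and the erythroid sums overlap.

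In summed plates, fewer wells of a type and less RNA per well cannot be told apart. The share of wells with a UMI also falls when each well holds less of a transcript, so it cannot separate them either. Wells were counted singly after each was thinned to 5000 UMIs. That left 328, 238 and 81 wells in double mutant replicates 1, 2 and 4 and 315 and 259 in the Pcna K164R plates. Double mutant replicate 3 kept 9 wells and is left out of these shares. The shares describe plates, and their Clopper-Pearson intervals cover counting error only. Hlf was found in 38.7%, 49.6% and 37.0% of the double mutant wells against 65.7% and 64.9%. Flt3 was found in 25.0%, 17.2% and 22.2% against 41.9% and 52.9%, and Dlk1 in 6.40%, 7.56% and 6.17% against 21.3% and 25.1%. For each of the 3 genes the share of wells with the transcript was lower in each of these 3 double mutant plates. Kit was found in 66.2%, 65.1% and 61.7% against 75.2% and 84.6%. Ly6a was found in 18.0%, 12.2% and 7.41% against 20.6% and 21.6%, and there the interval of double mutant replicate 1 (14.0% to 22.6%) reached over the values of both Pcna K164R plates. Igf2 was found in 0.305%, in 0 of 238 wells, which allows a share of wells with a UMI of up to 1.26% (Clopper-Pearson upper bound 1.54%), and in 1.23%, against 7.30% and 5.41%.

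Higher shares were seen for genes of damage response and red cells. Cdkn1a was found in 22.9%, 26.5% and 22.2% of double mutant wells (95% intervals 18.4% to 27.8%, 21.0% to 32.6% and 13.7% to 32.8%) against 13.3% and 9.65% (9.78% to 17.6% and 6.34% to 13.9%). Bax was found in 33.8%, 37.4% and 33.3% against 18.1% and 20.8%, and Tfrc in 46.3%, 51.3% and 65.4% against 32.4% and 27.8%. Hba-x was found in 5.49%, 8.82% and 14.8% against 0.317% and 0 of 259 wells, which allows a share of wells with a UMI of up to 1.16% (Clopper-Pearson upper bound 1.41%). For Cdkn1a, wild-type plates gave 6.65%, 5.50% and 7.14%, so that the Pcna K164R plates lay between wild type and the double mutant.

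**Figure D4:**
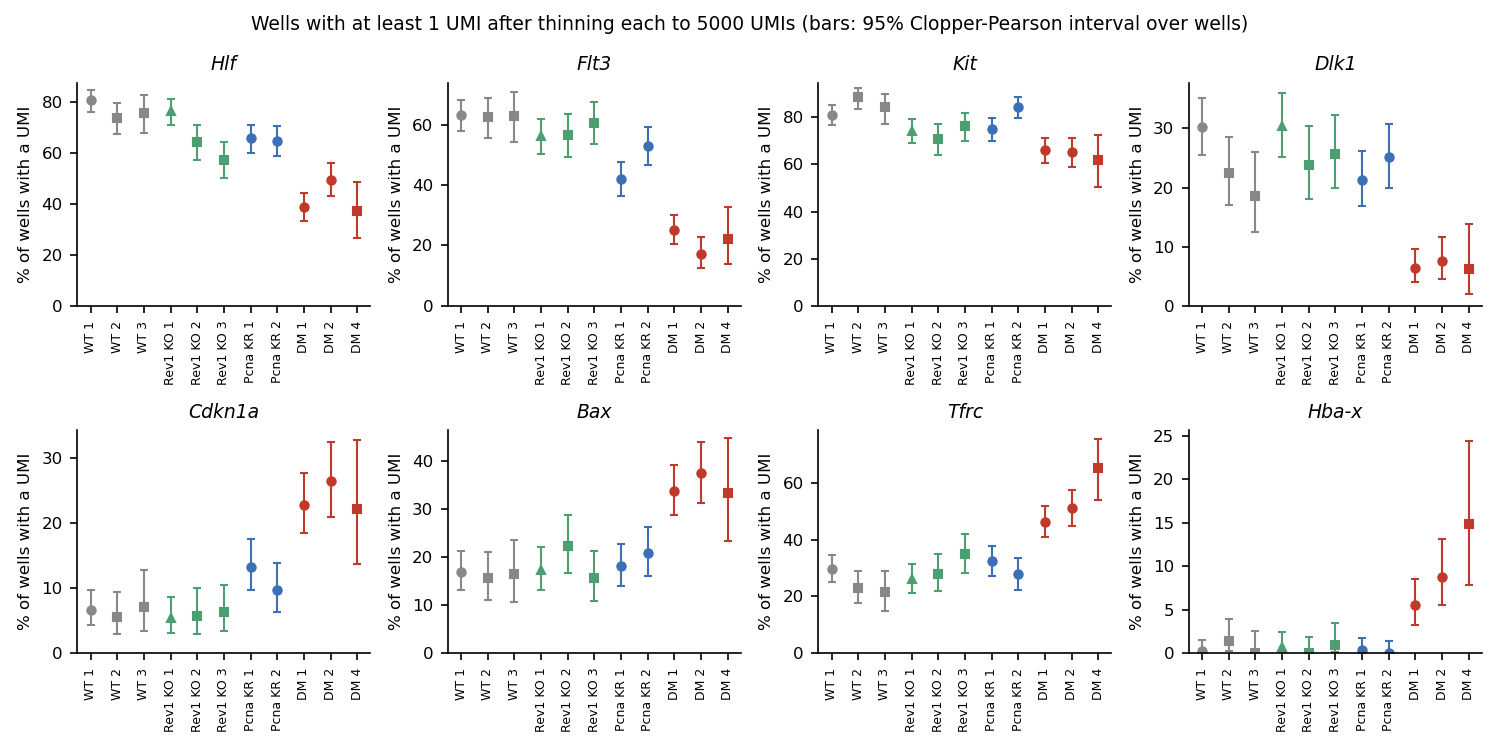
Percentage of wells with at least 1 UMI of each of 8 genes after thinning to 5000 UMIs, per plate, with 95% Clopper-Pearson intervals over wells. The 3 double mutant plates shown lie below both Pcna K164R plates for Hlf, Flt3, Kit and Dlk1 and above both for Cdkn1a, Bax, Tfrc and Hba-x. Double mutant replicate 3, with 9 wells, is not drawn.

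Cdkn1a (chromosome 17, 29090976 to 29100727) had the smallest p of all genes that were higher. It was at 75.7, 99.4, 65.9 and 64.4 CPM in the double mutant and at 29.4 and 28.2 CPM in Pcna K164R, with no overlap (1.72 ± 0.28, adjusted p = 0.0664, edgeR, not past the threshold). Wild-type plates were at 21.9, 6.91 and 11.4 CPM and Rev1 knockout plates at 14.1, 14.2 and 10.05 CPM. DESeq2 gave an adjusted p of 6.5e-05. The value was 1.72 without erythroid-marker wells and 1.58 within session 1 alone. Without double mutant replicate 3 the gene passed the edgeR threshold (adjusted p = 0.0428), and without replicate 4 it did not (0.135).

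The p53 target list was mixed. Of 31 tested, 20 were above 0, 8 were higher and 1 lower at an unadjusted p below 0.05, and the median was 0.22. Bax was at 93.4, 99.5, 28.2 and 103 CPM against 49.1 and 40.0 CPM (1.19 ± 0.25, adjusted p = 0.239, edgeR). The 3 UMIs of replicate 3 put that plate below both Pcna K164R plates, and without it Bax passed (adjusted p = 0.0428). Phlda3, an inhibitor of Akt, was at 1.04 ± 0.37, and Pmaip1, the BH3-only protein Noxa, at 1.49 ± 0.57. Sesn1 went the other way at -0.76 ± 0.26. The list's median was 0.39 without Pcna K164R replicate 2 and 0.06 without Pcna K164R replicate 1. In the BCL2 family, 3 of 13 members were higher and 0 lower at that p, with Bak1 at 0.83 ± 0.37 and a list median of 0.06.

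Genes of the pathway itself changed little in value. Of 30 damage tolerance genes, 0 were higher and 2 lower at an unadjusted p below 0.05, Rev1 and the fork remodeller Smarcal1 (-0.53 ± 0.22), and the median was 0.08. Ube2v2, which helps extend ubiquitin chains on the clamp, was at 0.40 ± 0.19. Of 45 Fanconi, checkpoint and homologous recombination genes, 1 was higher and 0 lower at that p, with a median of 0.09. Both lists had 0 members past the adjusted threshold in edgeR and in DESeq2, and in wells thinned to 1000 UMIs the medians were -0.12 for the first and -0.20 for the second, so no direction is given for either.

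Of the replication and growth genes, 0 passed the adjusted threshold in edgeR. Of 43 genes of S phase and origin licensing, 38 were above 0 and 4 were higher at an unadjusted p below 0.05, with a median of 0.22 (0.14 without erythroid-marker wells), Gins1 at 0.64 ± 0.22 and Nasp at 0.45 ± 0.20. G2 and mitosis genes had a median of 0.13 over 65 members, 4 of them higher and 0 lower at that p. The G1 cyclin Ccne1, which drives entry into S phase, was at 1.02 ± 0.30. Ribosome biogenesis genes had 56 of 60 members above 0, 14 higher and 0 lower at that p, and a median of 0.37, with the helicase Ddx39 at 0.72 ± 0.19 and Noc4l at 0.85 ± 0.23. Nuclear genes of the respiratory chain had 77 of 81 above 0 and a median of 0.30, while mitochondrially encoded genes centred on 0.01 (0.26 with no batch term). Cytosolic ribosomal proteins centred on 0.04, on 0.24 without Pcna K164R replicate 2 and on -0.12 without Pcna K164R replicate 1, so no direction is given for them. Stress response and chaperone genes had a median of 0.44 (0.25 without Pcna K164R replicate 2), with Hsph1 at 1.04 ± 0.30 and the serine synthesis enzyme Psat1 at 0.61 ± 0.19, against the lipoprotein receptor Vldlr at -1.81 ± 0.45. The Myc-linked noncoding gene Pvt1 was at 1.43 ± 0.35 and the lactate exporter Slc16a3 at 1.44 ± 0.39. The Myc network list had 19 of 25 members above 0 and a median of 0.28. Of all these genes 0 passed the adjusted threshold in edgeR, while DESeq2 called 2 ribosome biogenesis genes and 1 stress response gene higher, among them Ddx39 (adjusted p = 0.00035) and Psat1 (adjusted p = 0.0039). DESeq2 also called 3 Myc network genes higher.

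Other genes with a small p were not members of any list. Ccrn4l, a gene under circadian control, was at 71.9, 70.1, 37.7 and 66.1 CPM against 35.4 and 35.5 CPM (1.02 ± 0.19, adjusted p = 0.133, edgeR), and Pnp2, a purine nucleoside phosphorylase, at 40.0, 34.7, 9.41 and 28.4 CPM against 12.1 and 11.6 CPM (1.57 ± 0.31, adjusted p = 0.187). The following were chosen after their values were seen. The noncoding RNA of paraspeckles Neat1 was at 28.5, 31.95, 28.2 and 25.0 CPM against 61.6 and 79.4 CPM (-1.24 ± 0.20, adjusted p = 0.0664). Lax1, an adaptor that dampens lymphocyte receptor signals, was at 38.7, 26.7, 37.7 and 21.6 CPM against 82.9 and 85.3 CPM (-1.39 ± 0.23, adjusted p = 0.0664). Both genes were lower in all 4 double mutant plates.

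**Figure D5:**
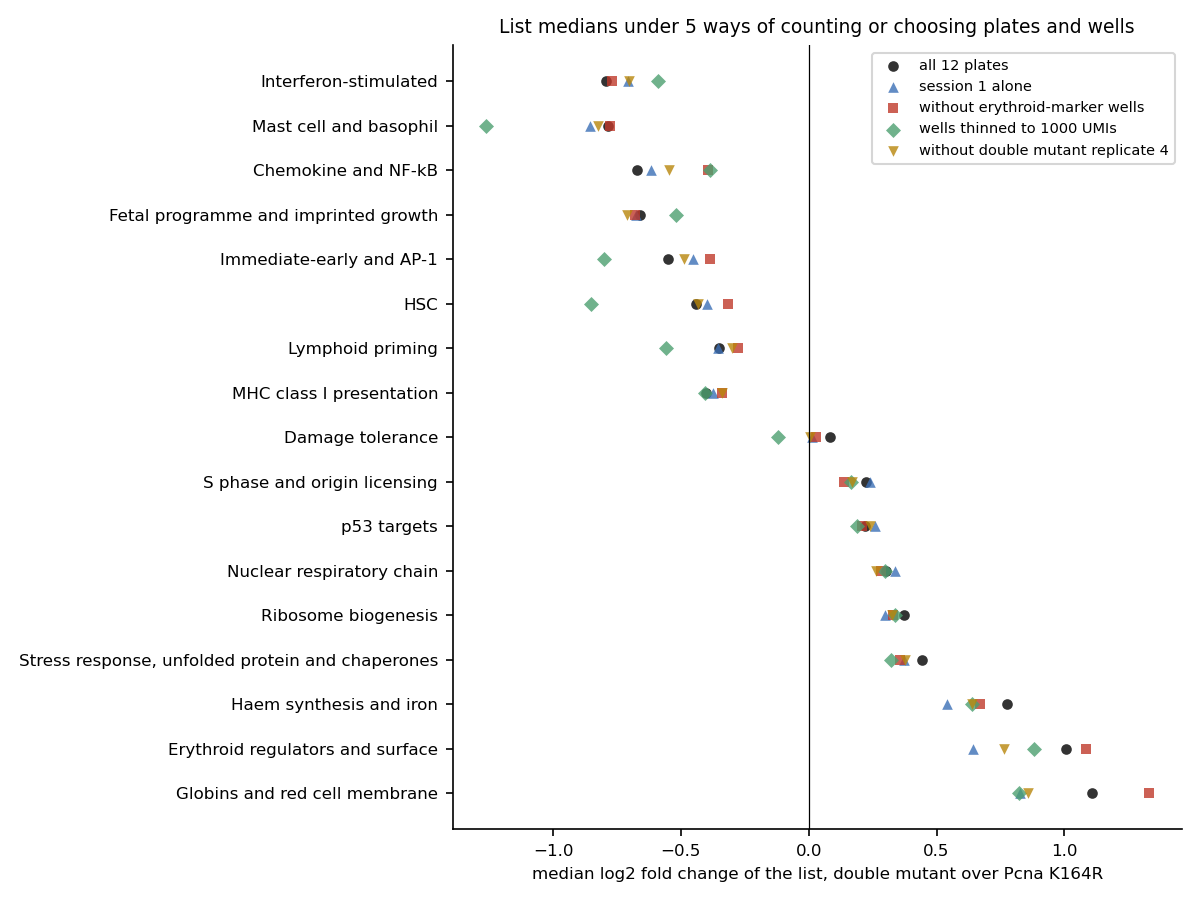
Median log2 fold change of 17 gene lists in all 12 plates, in session 1 alone, without erythroid-marker wells, in wells thinned to 1000 UMIs and without double mutant replicate 4. The sides of 0 are kept by all lists drawn except damage tolerance, which moves from 0.08 to -0.12 with thinned wells. Of the lists not drawn, the macrophage median moves from -0.35 to 0.70 with thinned wells. The medians of the BCL2 family, G1, Fanconi, cholesterol, S100, cytosolic ribosomal and mitochondrially encoded lists also change side there.

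The same fit gave the other genotype comparisons, which share plates with this one. Of 11799 genes, it called 623 in the double mutant against wild type and 206 against Rev1 knockout at the adjusted threshold. It called 0 in Pcna K164R against wild type and 0 in Rev1 knockout against wild type. The double mutant comparisons each hold 7 plates, and Pcna K164R against wild type holds 5. Their counts therefore do not compare directly. For Cdkn1a the double mutant minus wild type was 2.37 ± 0.26 and Pcna K164R minus wild type 0.64 ± 0.30. For Flt3 these were -2.13 ± 0.26 and -0.64 ± 0.32, and for Igf2 -3.88 ± 0.42 and -0.06 ± 0.46. Interferon-stimulated genes had a median of -1.29 in the double mutant against wild type, -0.51 in Pcna K164R against wild type and 0.52 in Rev1 knockout against wild type. Globin and red cell membrane genes had medians of 2.16, 0.37 and -0.31 in the same order.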

How the data were processed

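Single wells of 12 plates were read by SORT-seq on an Illumina NextSeq 500, per the labels' protocols. BWA 0.7.15 and the builds GRCm38 and mm10 are named in the submitters' processing notes with no role. The deposited UMI counts per gene and well were made by the authors. Every plate uses the same set of well barcodes, so barcodes do not tell plates apart. Counts were summed per gene and plate over wells that reached 1000 UMIs (ERCC spike-ins not counted), and genes on X and Y were dropped. The deposited read counts, and the transcript counts, which are estimated counts the authors derived from the UMIs, rounded here to whole numbers, served as alternatives. The test was edgeR 4.0.16 (quasi-likelihood F test, TMM, filterByExpr) in R 4.3.3 fitted to the 12 plates together; its terms were genotype and session of sorting, with 6 residual degrees of freedom and Benjamini-Hochberg adjustment over 11799 genes. DESeq2 1.42.0 was the alternative. CPM are scaled by TMM. The SE is the fold change divided by the root of F. The test was tried on simulated data without session effects or a spread of each gene's own. Replicates of a group differed beyond sampling noise (chi-square per degree of freedom at least 18.1). Replicate numbers follow accession order.

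The text names up to 5 genes per direction with the smallest p, Rev1, Pcna and Cdkn1a, and up to 4 members of each of 37 lists, besides those marked as chosen later. The members, lists and tests were chosen with earlier results of these data known. Erythroid-marker wells held at least 5 such UMIs after thinning to 1000. Promoters came from RefSeq (GRCm38.p6) and coordinates from GENCODE M21 (GRCm38).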

Additional observations from a re-analysis of the deposited data

Results flagged for a closer look

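In groups of 4 plates, a plate was marked where its gap to the nearest other plate exceeded Dixon's 95% critical value, over 48 measures, which chance would reach in about 1 in 20. All 6 marked values belong to double mutant replicate 3, whose floor of 3 UMIs is 28.2 CPM. It was the lowest plate for Ccrn4l (37.7 CPM), for Bax (28.2 CPM) and for the sum of Kit and Ly6a (0.00668% of UMIs). It was the highest for Robo4 (28.2 CPM), for Egr1 (56.5 CPM) and for dendritic markers (0.0100% of UMIs).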

How the results depend on the processing

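No paired analysis was possible because the replicate numbers follow accession order and pair nothing. The number of genes called (3) depended on most settings. It was 97 with DESeq2, 214 with no filter on low counts, 5 with transcript counts, 0 with read counts, 1 and 7 with well minimums of 500 and 2000 UMIs, 1 in wells thinned to 1000 UMIs and 5 with X and Y genes kept. It was 0 with no batch term, with flow cell in place of session, in the 6 plates alone with or without session, and in session 1 alone (1641 genes at an unadjusted p below 0.05). It was 3 with double mutant replicates 1 and 2 only. Leaving out 1 plate at a time gave 0 to 25: 0 without double mutant replicate 1, 2 or 4, wild type replicate 1 or 3, or Pcna K164R replicate 2, 1 without wild type replicate 2, 4 without Rev1 knockout replicate 2, 5 without Pcna K164R replicate 1, 6 without Rev1 knockout replicate 3, 20 without Rev1 knockout replicate 1 and 25 without double mutant replicate 3. Of the settings chosen after seeing the data, thinned wells without erythroid-marker wells gave 0 and session 1 alone with thinned wells gave 4. The cause was not tested. Igf2, Ifi44 and Wfdc17 were below 0 under all 31 alternatives and past the threshold in 17, 12 and 13 of them, with log2 fold changes from -4.57 to -3.39, -6.23 to -2.07 and -3.25 to -2.02. The exact permutation test of the erythroid marker share cannot go below p = 0.0667 with these plates, so its alternatives say nothing of its stability. With 2 Pcna K164R plates and 1 thin double mutant plate, changes of 1 on the log2 scale were mostly not detected even in the simulated data.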
